A study of Rattus norvegicus with 30 samples.

Results

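The sham laparotomy course followed the miRNAs of rat liver after a control operation, an opening of the abdomen that spares the liver. Its members were the 9 arrays that the labels assign to sham laparotomy, of 30 arrays in the series, and all 680 rat miRNA names of their chip layout. Livers of male Wistar rats were taken 12, 24 and 48 h after the sham operation, with 3 arrays per time that the design text calls biological replicates. The 9 arrays at 12, 24 and 48 h after 70% partial hepatectomy, from male Wistar rats too, served for comparison. Ages are not given in the labels, and no unoperated or 0 h array was on the sham layout, so each sham comparison is between times after surgery and not against a resting liver. The hepatectomy arrays were read on another layout, which shared 376 names with that of the sham arrays. The other 304 names could be followed after sham laparotomy only, and 189 of them were star strands, the usually rarer strand of a miRNA precursor.

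miRNAs are short RNAs that guide Argonaute proteins to messenger RNAs, mainly through the seed near their 5′ end, and lower the translation and stability of those messengers. In hepatocytes miR-122 is the dominant miRNA and is known for its part in lipid metabolism. The let-7 family accumulates as cells differentiate and represses growth genes such as Ras and Hmga2, so its members are often followed when liver cells leave or re-enter the cell cycle.

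The sequences that the results turn on are given first, as mature RNAs from RefSeq (GRCr8), with the seed (bases 2 to 8) in capitals. Of 32 names looked up, 31 had a mature sequence in that table, and what the chip's own probes look like is not stated in the labels or files. The let-7 names are shown because all 8 have the same seed.
let-7a: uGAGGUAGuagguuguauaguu
let-7b: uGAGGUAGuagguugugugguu
let-7c: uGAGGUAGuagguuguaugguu
let-7d: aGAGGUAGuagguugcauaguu
let-7e: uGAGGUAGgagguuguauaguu
let-7f: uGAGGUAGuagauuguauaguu
let-7i: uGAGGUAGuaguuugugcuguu
miR-98: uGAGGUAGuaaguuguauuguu
Against let-7a, let-7c, let-7e and let-7f differed at 1 position, let-7b, let-7d and miR-98 at 2 and let-7i at 4. Probes for such close relatives may share target RNA, and the members are therefore not independent measurements of each other.

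The next names share the seed AGCAGCA and are shown because members of this group lay both above and below their 12 h values after normalization.
miR-15b: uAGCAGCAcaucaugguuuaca
miR-16: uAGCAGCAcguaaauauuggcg
miR-195: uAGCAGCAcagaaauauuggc
miR-322: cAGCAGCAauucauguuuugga
miR-497: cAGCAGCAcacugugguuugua
The remaining sequences belong to bright names or to names with small p values among the sham times.
miR-122: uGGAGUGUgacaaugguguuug
miR-122*: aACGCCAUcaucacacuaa
miR-22: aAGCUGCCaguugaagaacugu
miR-9: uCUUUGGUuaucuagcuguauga
miR-466b-1*: aUACAUACacacacacauacac
The last of these is low in complexity, with A or C at 86.4% of its bases.

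Signal differed between the sham arrays before any miRNA was compared. On the authors' background-subtracted linear scale, miR-122 read 3005, 5265 and 5689 at 12 h, 7406, 23246 and 15024 at 24 h, and 6882, 18628 and 9538 at 48 h. The 24 h arrays all lay above the 12 h arrays. A name was counted as clearly above background on an array when its median raw spot reached 1.5 times the constant that the authors had subtracted. That count was 63, 28 and 37 of 680 names at 12 h, 104, 101 and 72 at 24 h, and 39, 51 and 72 at 48 h. Over all 9 arrays, 25 names were above this limit throughout and 546 on none, so most of the layout was read near background. The median log2 signal before normalization averaged 7.59 ± 0.17 at 24 h and 7.20 ± 0.14 at 12 h (SD, n = 3 each), and the exact permutation p of 0.1 was the smallest that 3 against 3 arrays allow (0.36 after adjustment over 18 such tests). At 48 h this median averaged 7.44 ± 0.20, with an exact permutation p of 0.3 against 12 h.

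**Figure D1:**
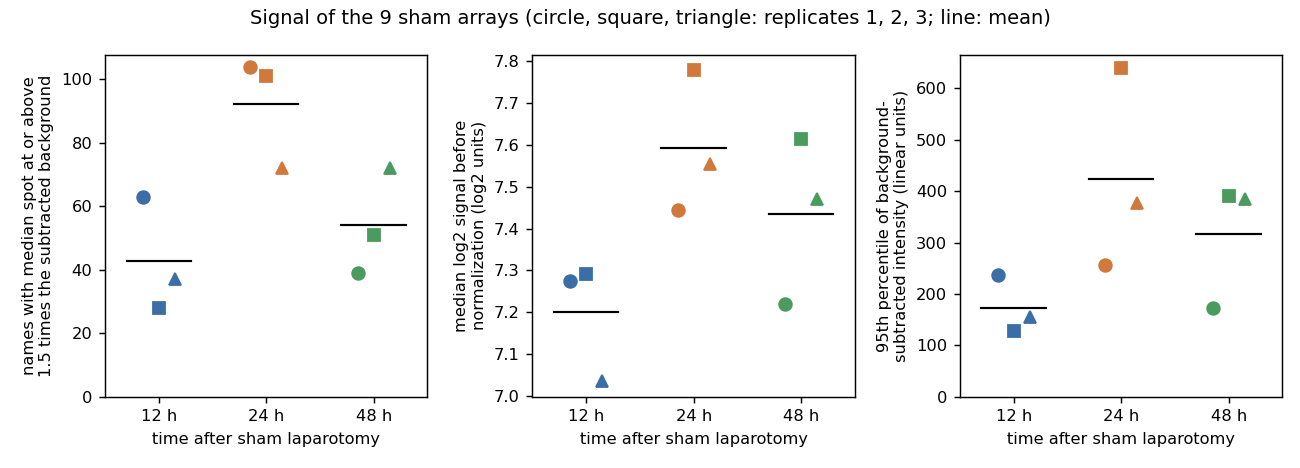
Signal of the 9 sham arrays by time after surgery: names at or above 1.5 times background (left), median log2 signal before normalization (middle) and 95th percentile of the background-subtracted intensity in linear units (right). Points are arrays and lines are group means; the 3 arrays at 24 h lie above the 3 at 12 h in each panel, and those at 48 h overlap both.

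All levels below are log2 intensities after normexp background correction and quantile normalization, which removes differences in overall brightness between arrays. Across names, the normalized arrays correlated at r = 0.924 to 0.974 between arrays of the same time and at 0.900 to 0.976 between arrays of different times, as a description over 680 names that share probes and chips. Brightness of different probes does not rank their miRNAs by abundance, so each name was set only against itself.

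The brightest names included miRNAs enriched in liver. miR-122 read 12.25, 13.10 and 13.38 at 12 h, 13.01, 13.19 and 13.32 at 24 h, and 13.34, 13.41 and 13.01 at 48 h. The 3 times overlapped, and 12 h replicate 1 lay below all other arrays. That array also had the most missing spots, 2.75% of its total. The difference of miR-122 was 0.26 at 24 h against 12 h (95% interval -0.25 to 0.78) and 0.34 at 48 h against 12 h (-0.18 to 0.86). miR-192 and miR-194, which are transcribed together in liver and gut epithelium, averaged 11.95 ± 0.10 and 12.34 ± 0.19 at 24 h, against 11.93 ± 0.15 and 12.23 ± 0.24 at 12 h (SD, n = 3 each). Their intervals at 24 h against 12 h ran between -0.24 and 0.28 for miR-192 and between -0.23 and 0.44 for miR-194. Of the 6 hepatocyte names measured (miR-122, miR-192, miR-194, miR-101a, miR-365 and miR-802), none passed the test at any time, and their median difference was 0.09 at 24 h and 0.02 at 48 h, both against 12 h. Over all names these medians were -0.03 and -0.03, and over the 100 brightest names they were 0.20 and 0.12. The hepatocyte medians thus lay above those of all names and below those of the brightest names. Only 3 of the 6 hepatocyte names were clearly above background on all 3 arrays of a time. The hepatocyte median depended on the scaling, from -0.01 to 1.0 at 24 h and 0.01 to 0.53 at 48 h, with the high end reached without normalization.

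The other bright names included miR-16, miR-26a, miR-23a, miR-23b, miR-24, miR-30b-5p, miR-30c, miR-31, miR-143, miR-191, miR-195, miR-29a, miR-125b-5p and miR-126. At 24 h miR-24 read 10.48, 10.39 and 10.31, against 10.58, 10.31 and 10.58 at 12 h, a difference of -0.10 (-0.31 to 0.12). For miR-26a, a brake on cyclins and the chromatin regulator Ezh2, the difference was -0.01 at 24 h (-0.32 to 0.30) and 0.15 at 48 h (-0.16 to 0.46), both against 12 h.

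**Figure D2:**
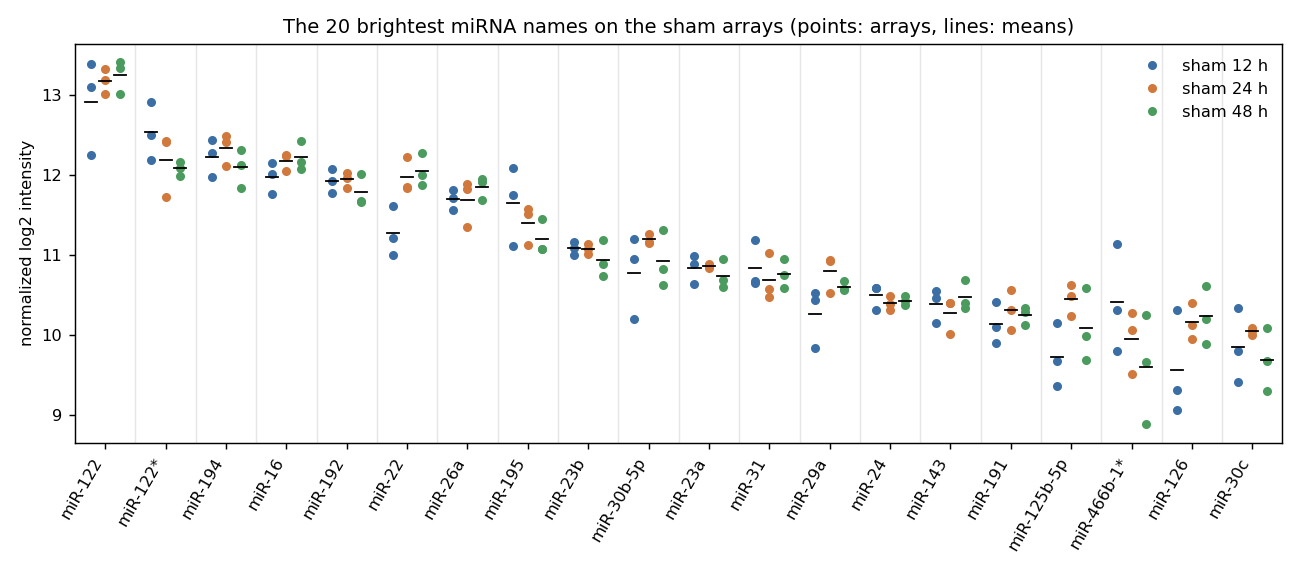
Normalized log2 intensity of the 20 brightest names, with 12, 24 and 48 h side by side for each name (points: arrays, lines: means of 3). The times overlap for most names; for miR-22 all arrays at 24 and 48 h lie above those at 12 h, and for miR-122* all arrays at 48 h lie below those at 12 h.

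The first comparison asked which miRNAs differed 24 h after sham surgery from their level at 12 h. No name passed limma's test at an adjusted p of 0.05 (0% of 680). Unadjusted, 61 names had a p under 0.05, 35 with the 24 h mean above and 26 below, and the smallest adjusted p was 0.249. Arrays of the 2 times did not overlap for 95 names, 14% of those tested. The median standard error of a difference was 0.11, and 0.16 among the 100 names brightest over all 9 arrays. The 95% interval lay within 1 log2 unit of 0 for 663 names. One name passed when 12 h replicate 3 was left out. This was miR-103, chosen here after its values were seen, which read 9.77, 9.68 and 9.61 at 24 h, against 8.83, 8.81 and 9.59 at 12 h (adjusted p 0.310 with all arrays and 0.0444 without that one).

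The differences were not spread evenly over brightness. Among the 100 brightest names 76 had a positive difference at 24 h against 12 h, with a median of 0.20, while 264 of all 680 names did. A difference of at least 0.5 was found for 18 names, and the 17 of them among the brightest 100 were all positive. These differences move with the brighter signal of the 24 h arrays given above, and the part of that signal in them was not tested.

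The 10 smallest p values of this comparison belonged to miR-322*, miR-497, miR-22, miR-99a, miR-503*, miR-494*, miR-9, miR-182, miR-3560 and miR-152. miR-22, a liver miRNA that represses nuclear receptor genes, read 11.85, 12.23 and 11.83 at 24 h, against 10.99, 11.61 and 11.21 at 12 h. All 3 arrays at 24 h lay above all 3 at 12 h, a difference of 0.70 ± 0.17 (SE) or 1.62-fold, with an adjusted p of 0.249 in limma. On the background-subtracted linear scale the same arrays read 3181, 11791 and 5033 at 24 h, against 1300, 2081 and 908 at 12 h.

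miR-99a read 8.45, 9.27 and 8.94 at 24 h, against 7.65, 8.23 and 7.82 at 12 h. It had the largest difference of the comparison, 0.98 (0.46 to 1.51), with arrays that did not overlap and an adjusted p of 0.249. No 12 h array held it clearly above background, so it can only be called at least 1.51-fold higher. Over the other settings tried its difference ranged over 0.66 to 2.59, that of miR-22 over 0.56 to 2.10 and that of miR-497 over 0.36 to 1.33, all positive. miR-497, encoded beside miR-195, read 8.77, 8.96 and 8.91 at 24 h, against 8.24, 8.0 and 8.43 at 12 h, a difference of 0.66 (0.32 to 0.99). Its arrays did not overlap either. miR-152, a repressor of the DNA methyltransferase Dnmt1, showed a smaller difference of 0.35 (0.14 to 0.57).

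Most other names of this group were read near background. miR-9, best known from neural tissue and also induced in inflammation, read 6.93, 7.08 and 7.14 at 24 h, against 7.44, 7.42 and 7.29 at 12 h. Its difference of -0.33 (-0.53 to -0.14) lay within signals that never reached 1.5 times background on any of the 9 arrays. The same held for miR-503*, miR-494* and miR-3560, with differences of -0.32, -0.33 and -0.37, and no fold is given for them. miR-322* read between 7.96 and 7.97 at 24 h, against 7.63, 7.34 and 7.50 at 12 h, and had the smallest unadjusted p of the comparison (0.00054).

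**Figure D3:**
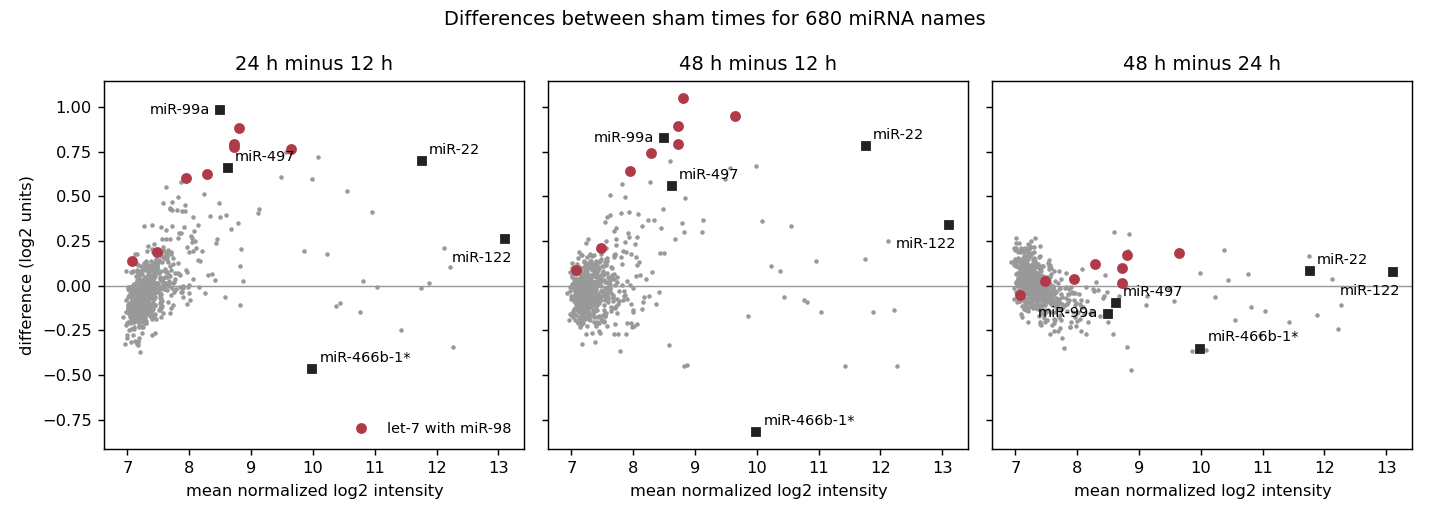
Difference in log2 units against mean normalized log2 intensity for 680 names, at 24 h minus 12 h (left), 48 h minus 12 h (middle) and 48 h minus 24 h (right). Red points are the 8 let-7 names and black squares are 5 labelled names; let-7 names lie above 0 in both comparisons with 12 h, and no difference reaches 0.5 between 48 and 24 h.

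The second comparison set 48 h against 12 h, and it shares the 12 h arrays with the first. Again no name passed in limma (0% of 680), 45 had an unadjusted p under 0.05, and the smallest adjusted p was 0.424. Arrays did not overlap for 84 names (12.4%). miR-22 had the smallest p here, reading 12.00, 12.28 and 11.88 at 48 h against the 12 h values above, a difference of 0.78 (0.42 to 1.15) or 1.72-fold. After it came miR-9, miR-497, let-7d, miR-152, miR-99a, let-7c, miR-764, let-7e and miR-15b. miR-99a read 8.38, 9.20 and 8.60 at 48 h, without overlap with 12 h, and miR-497 read 8.43, 8.95 and 8.97, where one 48 h array met the highest 12 h array. miR-9 read 7.07, 7.10 and 7.01 at 48 h, all below its 12 h arrays and all near background. Only let-7c differed by more than 1 log2 unit (1.05).

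Between 48 and 24 h, differences were smaller. No name passed in limma (0% of 680), 16 had an unadjusted p under 0.05, and the smallest adjusted p was 0.997. Arrays did not overlap for 59 names (8.68%). The largest difference was 0.47 in size, belonging to miR-196c*, which read 8.03, 8.37 and 9.28 at 48 h, against 9.33, 8.80 and 8.96 at 24 h, with overlapping arrays. The 95% interval lay within 1 log2 unit of 0 for 678 of 680 names. The 10 smallest p values belonged to miR-376a*, miR-347, miR-3541, miR-451*, miR-3578, miR-376c*, miR-370*, miR-503*, miR-196b and miR-322*, with differences between -0.29 and 0.25. Only miR-3541 and miR-322* of these ever reached 1.5 times background, on 1 and 2 arrays. The F test over all 3 times also called no name in limma, with 45 unadjusted p values under 0.05 and a smallest adjusted p of 0.528. Its 10 smallest p values were those of miR-22, miR-322*, miR-497, miR-99a, miR-9, miR-152, miR-503*, let-7d, miR-494* and miR-182.

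Values of the let-7 family were taken member by member. let-7d, the brightest member by signal, read 8.42, 9.57 and 9.24 at 12 h, 9.40, 9.99 and 10.13 at 24 h, and 9.98, 10.23 and 9.86 at 48 h. The 48 h arrays all lay above the 12 h arrays, while 1 array at 24 h fell among them. Its difference was 0.76 at 24 h (0.19 to 1.34) and 0.95 at 48 h (0.38 to 1.52), both against 12 h, with adjusted p of 0.346 and 0.541 in limma.

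let-7c read 7.68, 8.47 and 8.31 at 12 h, 8.24, 9.42 and 9.45 at 24 h, and 9.09, 9.58 and 8.95 at 48 h. Its 48 h arrays lay apart from those at 12 h, by 1.05 (0.37 to 1.73) or 2.07-fold. let-7a read 7.88, 8.65 and 7.96 at 12 h, 8.11, 9.35 and 9.42 at 24 h, and 8.72, 9.63 and 8.82 at 48 h. Its 24 h replicate 1 stayed within the 12 h range, and that array was low for most of the family.

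All 8 names had a positive difference at 24 h and at 48 h against 12 h. The median was 0.69 at 24 h, in a range of 0.14 to 0.88, beside -0.03 over all names. At 48 h it was 0.77, in a range of 0.09 to 1.05, beside -0.03 over all names. Over the 100 brightest names the medians were 0.20 at 24 h and 0.12 at 48 h, with 76 and 60 names positive. None passed limma's test in either comparison, where none of all 680 names did. At 24 h all arrays lay above those at 12 h for 2 of the 8 names, let-7e and miR-98, as for 4.71% of all names. At 48 h this held for 5 of the 8, let-7a, let-7b, let-7c, let-7d and let-7e, beside 5.44% of all names. Among the 100 brightest names, which include 6 of the 8, all later arrays lay above those at 12 h for 16 names at 24 h and for 16 at 48 h. At 48 h against 24 h the median was 0.07, and arrays overlapped for all 8, where 5.74% of all names had the 48 h arrays above. let-7i and miR-98, at 7.49 and 7.08 over all arrays, were close to background and had the smallest differences.

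Under other scalings the let-7 median stayed positive, at 0.44 to 1.28 for 24 h and 0.60 to 1.08 for 48 h, both against 12 h. With no normalization the median of all names was itself 0.28 and 0.17, so the let-7 median of 1.28 and 1.08 stood 1.0 and 0.91 above it. Other lists with bright members stood nearly as far above it at 24 h under that setting, by 0.99 for miR-125, 0.93 for miR-23/24/27, 0.93 for miR-103 with miR-107, 0.89 for miR-15/16 and 0.73 for the hepatocyte names. Between 48 and 24 h its sign depended on the scaling, from -0.18 to 0.16. The summed background-subtracted let-7 signal was 540 to 1116 at 12 h, 1304 to 6925 at 24 h, and 1380 to 5301 at 48 h, while that of the 6 hepatocyte names was 8441 to 11451, 16216 to 46071 and 10015 to 31603 at the same times.

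**Figure D4:**
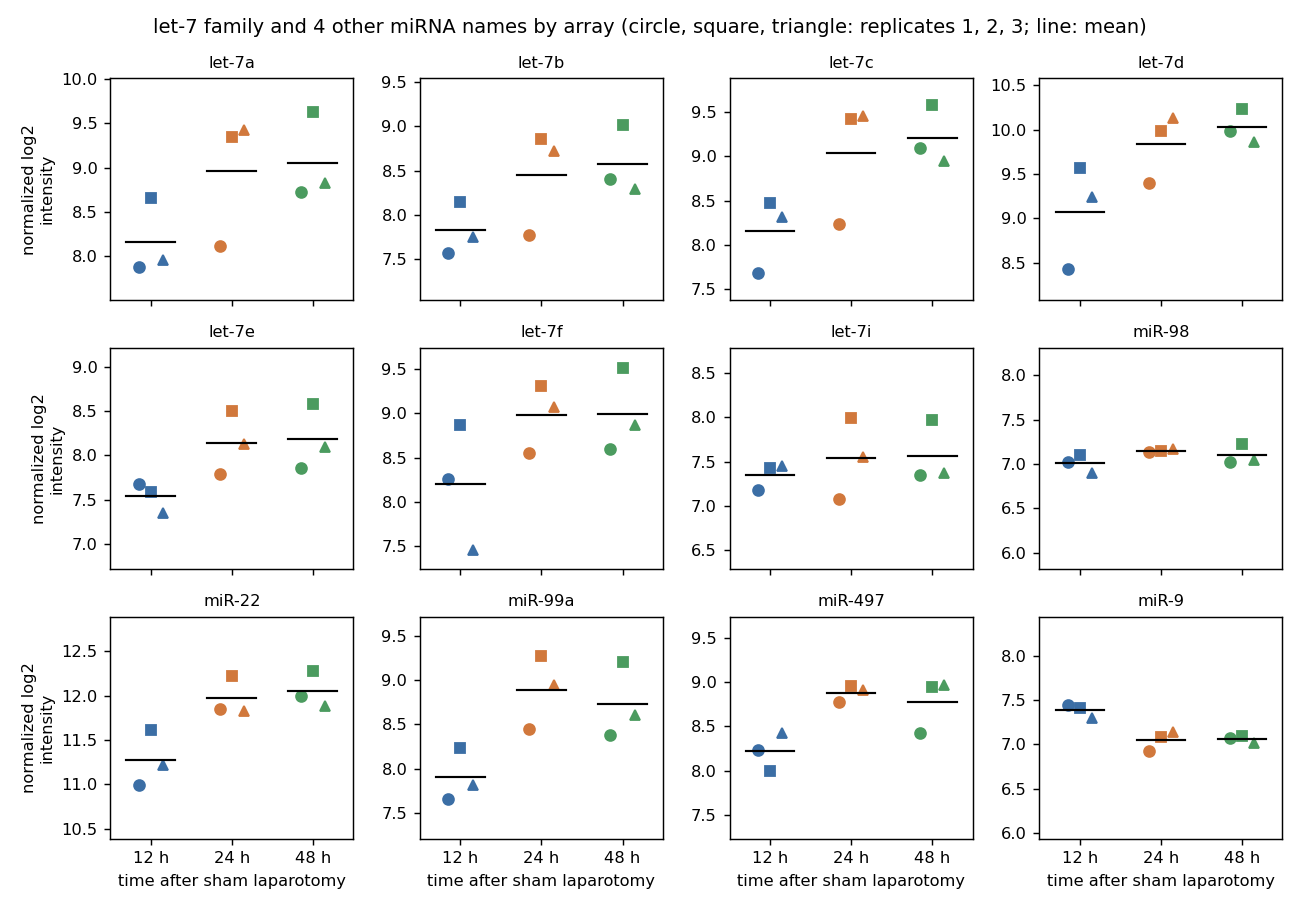
Normalized log2 intensity of the 8 let-7 names and of miR-22, miR-99a, miR-497 and miR-9 by time after sham laparotomy (points: arrays, lines: means of 3; every panel spans 2.5 log2 units). For let-7c and let-7d all arrays at 48 h lie above those at 12 h, and for miR-9 all arrays at 24 and 48 h lie below those at 12 h.

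Among the 31 names with a sequence, those whose genes lie within 10 kb of a let-7 gene gave mixed values. Other names of the layout were not searched for such neighbours. miR-99b, encoded beside let-7e, differed by 0.38 at 24 h, and miR-100, encoded beside a let-7a gene, by 0.55, both against 12 h. Together with miR-99a these 3 names had a median of 0.55 at 24 h and 0.51 at 48 h against 12 h, and arrays of miR-99a alone did not overlap in either comparison. miR-98 shares a locus with a let-7f gene and differed by only 0.14, beside 0.78 for let-7f. The names let-7a, let-7f and let-7d, which share one gene cluster, differed by 0.80, 0.78 and 0.76. A name with several gene copies is one measurement, so these values do not assign signal to a locus.

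Names with the seed AGCAGCA, which repress cyclins and Bcl2, did not stand together. At 24 h against 12 h miR-497 differed by 0.66, miR-16 by 0.21, miR-15b by 0.20, miR-322 by 0.22 and miR-195 by -0.25. miR-195 and miR-497 come from the same locus and had opposite signs after normalization. On the background-subtracted linear scale miR-195 read 2873, 5621 and 4233 at 24 h, against 2973, 2181 and 772 at 12 h. On that scale miR-497 read 308, 680 and 416, against 188, 116 and 152. The sign for miR-195 therefore depended on the normalization. miR-195 read 11.57, 11.13 and 11.51 at 24 h, against 12.09, 11.75 and 11.12 at 12 h, with overlap. At 48 h miR-195 read 11.08, 11.08 and 11.45, a difference of -0.45 against 12 h (-0.92 to 0.03). The median of the 5 names was 0.21 at 24 h and 0.25 at 48 h. Over the scalings tried it ranged over 0.01 to 1.17 at 24 h and 0.12 to 0.83 at 48 h.

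Among the 100 brightest names the median at 24 h against 12 h was 0.20, with 76 positive. Smaller families gave positive medians in this comparison too, again with no name passing, so a positive median was not particular to them. These were 0.42 for the 3 miR-29 names, which repress collagens, 0.27 for the 5 miR-30 names, 0.20 for the 9 miR-17/20/93 names, which promote proliferation, and 0.50 for miR-103 and miR-107. Over the scalings tried they ranged over 0.18 to 0.83 for miR-29, -0.02 to 0.96 for miR-30, 0.11 to 0.57 for miR-17/20/93 and 0.09 to 1.2 for miR-103 and miR-107, so the sign for miR-30 was not fixed. Only 1 of the 3 miR-29 names and 1 of the 9 miR-17/20/93 names were clearly above background on all 3 arrays of a time. This held for 4 of the 5 miR-30 names and for miR-103 and miR-107. miR-29a read 10.52, 10.92 and 10.94 at 24 h, against 9.84, 10.44 and 10.52 at 12 h, and one 24 h array matched the highest 12 h array. miR-125b-5p read 10.23, 10.62 and 10.49 at 24 h, against 9.36, 10.15 and 9.67 at 12 h, without overlap, and had a difference of 0.72 (0.21 to 1.24). The 4 miR-181 names, the 5 miR-34 and miR-449 names and the 5 miR-23/24/27 names had medians of -0.04, -0.11 and 0.03, each of which took either sign over the scalings.

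miRNAs that respond to surgery and inflammation were counted as a list of 9, of which 8 were on the layout. None passed, 2 of 8 had a positive difference at 24 h and 3 at 48 h against 12 h, and the medians were -0.09 and -0.08. The 2 positive names at 24 h were miR-21 and miR-146a, while miR-31, the brightest of the list, had a negative difference. miR-21, which is induced in injured liver, read 9.92, 10.10 and 9.54 at 24 h, against 9.55, 9.34 and 8.42 at 12 h. One 24 h array fell just within the 12 h range, and the difference was 0.75 (0.15 to 1.34) with an adjusted p of 0.384. At 48 h miR-21 read 9.34, 10.02 and 9.93, a difference of 0.66 against 12 h. miR-146a, a feedback inhibitor of Toll-like receptor signalling, read 7.77, 8.52 and 7.97 at 24 h, against 7.56, 7.45 and 7.50 at 12 h, without overlap. It was clearly above background on 1 of the 9 arrays. miR-221 and miR-222, which repress the cell cycle inhibitor p27, were near background on all 9 arrays and differed by -0.18 and 0.02.

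Markers of other cell types were mostly at background. Of the 6 leukocyte names none reached 1.5 times background on any 12 or 48 h array, and 2 did on 1 array at 24 h. Their summed background-subtracted signal was 28 to 184 at 12 h, 304 to 812 at 24 h, and 272 to 408 at 48 h. After normalization their median difference was 0.02 at 24 h and 0.08 at 48 h against 12 h, with 3 and 5 of 6 positive. miR-142-3p, which defines blood cells, had a background-subtracted signal between -48 and 20, and miR-223 of neutrophils one between 36 and 104. The erythroid miR-451 read between -32 and 104 on that scale, and miR-144 between -8 and 48. Muscle names summed to between -100 and 128 over all arrays and pancreatic names to between -32 and 212. The endothelial miR-126 differed by 0.60 at 24 h and 0.67 at 48 h against 12 h, with overlapping arrays. Its partner strand miR-126*, the other endothelial name, was near background and differed by -0.20 and -0.11. The mesenchymal miR-145 differed by 0.61 and 0.58 and did not overlap with 12 h at 48 h, while miR-143 from the same locus differed by -0.11 and 0.08. Over the 5 mesenchymal and stellate names the median was 0.03 at 24 h and 0.08 at 48 h, with 3 and 4 positive. In whole liver, fewer cells of a type and less RNA per cell cannot be told apart.

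The 304 names absent from the hepatectomy layout were mostly dim. Only 12 of them reached 1.5 times background on all 3 arrays of a time. Their median difference was -0.05 at 24 h and -0.05 at 48 h against 12 h, beside -0.03 and -0.03 for all names, and none passed. miR-122*, the partner strand of miR-122, was the brightest of them, reading 12.92, 12.18 and 12.50 at 12 h, 12.43, 11.73 and 12.42 at 24 h, and 12.09, 12.17 and 11.99 at 48 h. After normalization the 48 h arrays lay just below those at 12 h. The difference was -0.45 (-0.90 to -0.00), with an adjusted p of 0.731 in limma. On the background-subtracted linear scale miR-122* read 4517, 2869 and 2085 at 12 h, against 2157, 8030 and 5185 at 48 h. The order of these arrays therefore depended on the normalization. The normalized difference of miR-122 in the same comparison was 0.34, of opposite sign, and the difference between both strands was not tested.

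miR-466b-1*, the low-complexity sequence printed above, had the most negative difference of the course at 48 h against 12 h, -0.82 (-1.63 to -0.01), yet its arrays overlapped. It read 9.66, 8.88 and 10.25 at 48 h, against 11.14, 9.79 and 10.31 at 12 h. Bright signal on 12 h replicate 1 recurred in other absent names. miR-466c* read 9.56 on that array, against 8.56 and 8.87 on the other 12 h arrays, and miR-196c* read 10.07, against 8.26 and 8.68. miR-483* read 9.52 there, against 7.96 and 8.59. Without a difference between times that passed, these values describe single arrays. The lowest F test p values among absent names belonged to miR-503*, miR-494*, miR-3560, miR-103-2* and let-7f-1*, none of which reached 1.5 times background on any array. Over all 242 star strands the median difference was -0.04 at 24 h and -0.04 at 48 h, both against 12 h.

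The last comparison asked whether the sham course differed from the course after hepatectomy, as the change since 12 h in one minus that in the other over 376 shared names. A constant offset between both layouts cancels in it, and a difference in slope does not. No name passed in limma for the change to 24 h (0% of 376), with 18 unadjusted p values under 0.05 and a smallest adjusted p of 0.753. For the change to 48 h none passed either (0% of 376), with 11 unadjusted p values under 0.05 and a smallest adjusted p of 0.975. The median standard error was 0.24, more than that of the sham course alone.

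For 24 h the 5 lowest p values belonged to miR-29a, miR-22, miR-125b-5p, miR-298 and miR-330. miR-29a differed from 12 h by -1.24 after hepatectomy and by 0.21 after sham, a difference of -1.45 (-2.39 to -0.50). With only the 4 groups of this contrast in the fit, miR-29a passed at an adjusted p of 0.0122, and over all 19 fits that p lay between 0.0122 and 0.999. miR-22 differed from 12 h by -0.51 after hepatectomy and by 0.55 after sham, a difference of -1.06 (-1.80 to -0.32). miR-125b-5p gave -1.01 after hepatectomy and 0.20 after sham, a difference of -1.21 (-2.08 to -0.33), and passed when hepatectomy 12 h replicate 2 was left out (-1.72, adjusted p 0.0310, in a range of 0.0310 to 0.999 over all fits). For 48 h the lowest p values belonged to miR-9, miR-22, miR-101a*, miR-181c and miR-34a, with differences of 0.69, -0.95, -0.45, -0.48 and 0.51.

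The let-7 names differed from 12 h by a median of -0.23 after hepatectomy and 0.31 after sham at 24 h, and 7 of 8 had a negative difference between operations. At 48 h the medians were 0.20 after hepatectomy and 0.39 after sham, and 5 of 8 had a negative difference between operations. The median let-7 difference between operations was -0.58 at 24 h and -0.20 at 48 h, beside 0.018 and -0.0018 over the 376 shared names. let-7d gave -0.85 after hepatectomy and 0.15 after sham at 24 h, a difference of -1.0 (-1.77 to -0.22) with an adjusted p of 0.753. The sham values in this joint fit were smaller than in the fit of the sham arrays alone, where let-7d differed by 0.76. The joint fit normalized names, not spots, and did so over all 30 arrays. Quantile normalization there gave miR-122 the same value of 12.94 on the hepatectomy arrays at 12, 24 and 48 h and on the sham arrays at 24 and 48 h, so its course could not be measured in this fit.

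**Figure D5:**
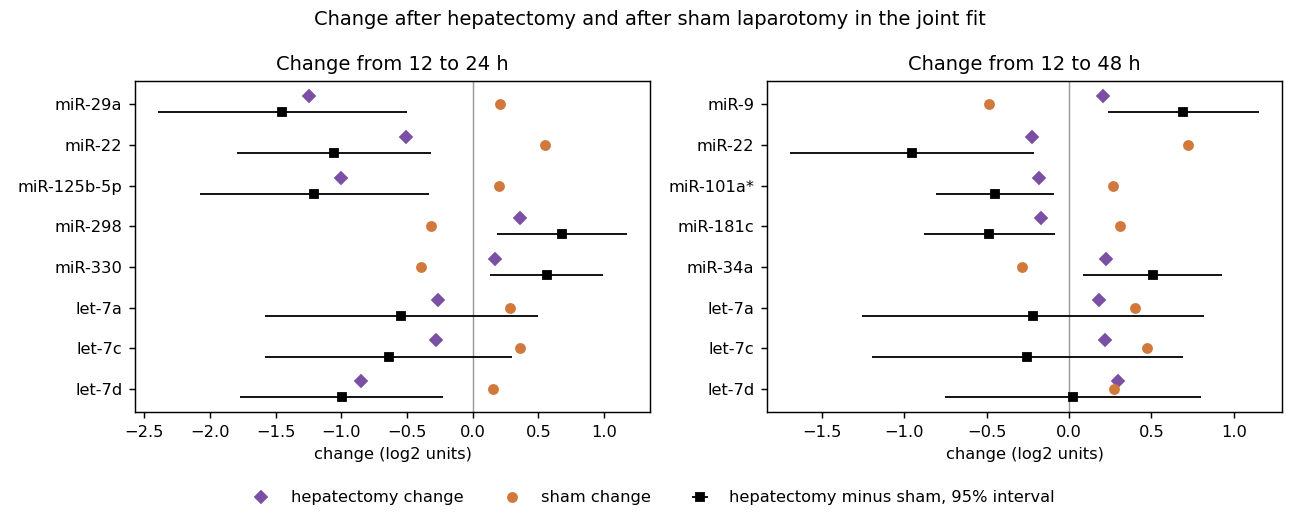
Change since 12 h at 24 h (left) and 48 h (right) in log2 units: hepatectomy (diamonds), sham (circles) and hepatectomy minus sham with its 95% interval (squares), for the 5 names with the smallest p values and 3 let-7 names. miR-29a, miR-22 and miR-125b-5p lie below 0 after hepatectomy and above 0 after sham at 24 h, and no difference passed after adjustment over 376 names.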

How the data were processed

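Liver miRNAs were measured on 1-colour microfluidic chips (febit), on which captured miRNAs prime an extension with biotin-labelled nucleotides, per the labels' protocols. The authors deposited raw spot intensity for each layout, background-subtracted intensity for the sham spots and medians of it per name, and processed values on a log2 scale (323 names). On the sham arrays the subtracted background was 1 constant per array, by comparison of the deposited intensity tables. The image software and the build behind the probes were not stated in the labels or files.

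Raw spots (22 per name, 0.811% missing) were background-corrected by normexp (offset 50), log2 transformed, quantile-normalized over the 9 sham arrays and averaged per name, with limma 3.58.1 in R 4.3.3. One linear model with eBayes covered the 3 times (6 residual degrees of freedom). Two-sided p values were adjusted by Benjamini-Hochberg over 680 names, or 376 in the joint fit of 30 arrays, where spots were averaged first. The threshold was 0.05. Where no array of a time reached 1.5 times background, a fold is a bound: the brighter mean against, per dim array, the higher of the name's own level and the lowest level above that limit. The number of arrays limits the precision.

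Named miRNAs were, for each pair of times and the F test, the 10 smallest p values, since no name passed, then the 20 brightest names, the 5 brightest and 5 smallest F test p values among names absent from the hepatectomy layout, the 5 smallest p values of each difference in change, and a fixed set of 18, of which 17 were on the layout. Members and lists were chosen with earlier results of these data known. Alternatives changed the background correction, normalization, spot summary, dim filter, array weights, the groups in the fit and the arrays, and added a replicate block. An alternative that averages spots before normalization was chosen after seeing the data.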

Additional observations from a re-analysis of the deposited data

How the results depend on the processing

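The number of names past the threshold was 0 for every pair of sham times, the F test and both differences in change, and stayed at 0 in most of the alternatives run. Leaving out 1 array in turn gave 0 to 1 names at 24 h against 12 h (miR-103, without 12 h replicate 3) and 0 to 1 for the change to 24 h between operations (miR-125b-5p, without hepatectomy 12 h replicate 2), and 0 elsewhere. Fitting only the 4 groups of that contrast gave 1 name (miR-29a). The replicate block, although the numbers were not shown to pair the arrays, gave 3 names at 24 h against 12 h (miR-22, miR-99a and miR-125b-5p), 4 at 48 h against 12 h (miR-22, miR-99a, let-7c and let-7d), 2 in the F test (miR-22 and miR-99a) and 0 elsewhere. Deviations of same-numbered arrays correlated at -0.19 to 0.37, over 0.1 in 5 of 9 pairs, and 5 of 9 arrays correlated best with an array of their own number, which leaves the pairing unsettled. The cause of these calls was not tested. Unadjusted p values under 0.05 at 24 h against 12 h numbered 14 to 264 over the alternatives. For named miRNAs 1965 values kept their direction and side of the threshold, 10 gained a call and 123 values that were never called turned sign or were 0. let-7c at 48 h against 12 h ranged over 0.75 to 2.16. Signal near background limits most of the 680 names.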
